A study of Rattus norvegicus with 6 samples.

Results

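Kainate receptors are glutamate-gated cation channels built from 4 subunits. The genes described here are the 5 that encode their subunits, Grik1 to Grik5, and the 2 that encode their auxiliary proteins, Neto1 and Neto2. The tissue was hippocampus, and the animals were male Wistar rats. All probes whose transcript accession on the array belongs to 1 of the 7 listed genes were taken, which gave 7 of the 30367 probes of the array, for 6 of the 7 genes. Grik1 had 2 probes, the other 4 subunit genes and Neto1 had 1 each, and no probe was named Neto2 here, so that gene was not analysed.

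The 2 groups were orchidectomized males, whose testes had been removed at 2 months of age, and males of the same age that had a sham operation. Each group held 3 samples that the labels call biological replicates, without saying whether a sample is 1 animal. Rats of both groups were kept on a 12 h light and dark cycle and were put under ketamine and medetomidine 2 weeks after surgery, when the hippocampus was collected. Ketamine is itself a blocker of NMDA-type glutamate receptors. RNA of each sample was hybridised to its own 1-colour Agilent array. Each value is a log2 intensity from which the 75th percentile of its array was subtracted. A difference is orchidectomized minus sham on that log2 scale. Because the brightness of a probe depends on its own sequence, values are compared between arrays and never between genes.

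GluK1, GluK2 and GluK3, the products of Grik1, Grik2 and Grik3, can form working channels on their own. GluK4 and GluK5, the products of Grik4 and Grik5, bind kainate with high affinity but need a GluK1, GluK2 or GluK3 partner. Neto1 and Neto2 are single-pass membrane proteins that bind the assembled receptor and modify its gating. In the hippocampus these receptors are best known from the synapses of dentate mossy fibres on CA3 pyramidal cells, where they act on both sides of the synapse, and from GABAergic interneurons, many of which carry GluK1.

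The array labelled sham 2 stood apart from the rest, and each result is therefore given with and without it. Whether its sample or its label is at fault cannot be told from the files, so a difference over all 6 arrays is orchidectomized minus sham only as labelled. Its correlation with the other arrays over all probes was 0.876 to 0.880, against 0.983 to 0.993 among the other 5, and probes are not independent replicates. The choroid plexus list (12 genes, among them Ttr, Kl and Cldn2) had a mean log2 value of 4.71 on it and -4.15 to -2.62 on the other 5, with a median shift of 8.64. The glutamatergic neuron list (7 of 8 genes with a probe, among them Slc17a7 and Neurod6) had a mean of -6.30 on it and -0.38 to 0.24 on the others. On the array labelled sham 2, 2 of these 7 genes were not well above background, so the mean there is not exact. In bulk tissue, fewer cells of a type and less RNA per cell cannot be told apart. Per array, 23785 to 26173 probes were well above background, and precision is set by how few arrays there are.

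When the array labelled sham 2 was left out, the kainate receptor genes of orchidectomized rats did not differ from those of sham rats beyond the spread between arrays. The estimates ran from -0.22 for Grik5 to 0.23 for the NM_001111117 probe of Grik1. With that array included, the estimates ran from 0.40 for Grik5 to 2.90 for the same Grik1 probe. Those of Grik1, Grik2 and Grik3 then rest on readings of the array labelled sham 2 that were not well above background, and these genes passed the brightness filter through the orchidectomized arrays alone. In either comparison 0 of the 7 member probes passed limma's Benjamini-Hochberg adjusted threshold, and of all tested probes 0 of 24634 did with 6 arrays (0%) and 0 of 25212 with 5 (0%). None of the 7 had an unadjusted p under 0.05, against 0.731% of all tested probes with 6 arrays and 2.71% with 5. The groups overlapped at all 7 probes in both comparisons, and they did not overlap at 8.00% and 16.3% of all tested probes. With only 7 probes, a count of 0 cannot be told apart from any of these shares.

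**Figure D1:**
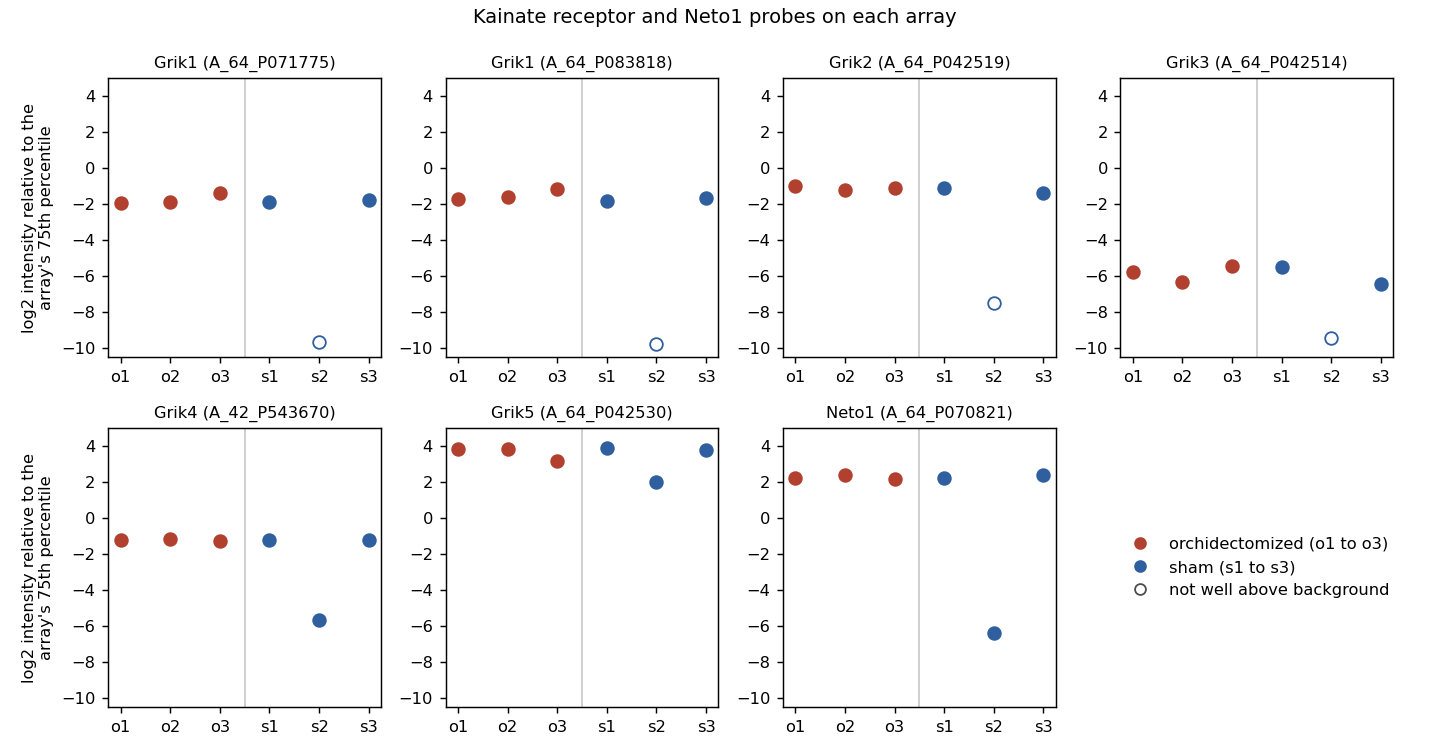
Log2 intensity relative to the array's 75th percentile (y axis) of each of the 7 probes on the 3 orchidectomized (o1 to o3, red) and 3 sham arrays (s1 to s3, blue). Open circles mark values not well above background. The array labelled sham 2 lies below all others at every probe, from -9.76 for Grik1 to 2.00 for Grik5.

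Among the genes of subunits that form channels on their own, Grik1 was read by 2 probes to different transcripts (NM_001111117 by probe A_64_P083818 and NM_017241 by probe A_64_P071775). The NM_001111117 probe had -1.73, -1.61 and -1.17 on orchidectomized 1 to 3, against -1.84, -9.76 and -1.63 on sham 1 to 3. The NM_017241 probe had -1.93, -1.88 and -1.39 on orchidectomized 1 to 3, against -1.87, -9.64 and -1.78 on sham 1 to 3. Both probes were highest on orchidectomized 3, the other 2 orchidectomized values lay within or next to the range of sham 1 and sham 3, and neither probe was well above background on the array labelled sham 2.

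Over the remaining 5 arrays, the NM_001111117 probe of Grik1 averaged -1.50 ± 0.29 in the 3 orchidectomized arrays and -1.73 ± 0.15 in the 2 sham arrays (SD). These means differed by 0.23, with an SE of 0.20 and a limma adjusted p of 0.988. The NM_017241 probe differed by 0.093 (SE 0.20). When orchidectomized 3 was left out as well, these differences became 0.063 and -0.080. After each was centred on its mean, the 2 Grik1 probes differed by a root mean square of 0.079 over the 5 arrays. Grik1 NM_001111117 and Grik2 differed by 0.25, but the different genes Grik4 and Neto1 by only 0.066. Such values also depend on how much each probe varied. The SD over the 5 arrays was 0.25 and 0.22 for the Grik1 probes (NM_001111117, NM_017241), but 0.048 for Grik4 and 0.11 for Neto1. The small value between Grik4 and Neto1 therefore does not show a shared pattern.

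Grik2 encodes the subunit most tied to mossy fibre transmission and to seizures caused by kainate in rodents. It had -1.01, -1.22 and -1.09 on orchidectomized 1 to 3, against -1.11, -7.51 and -1.36 on sham 1 to 3. The orchidectomized values lay within or just above those of sham 1 and sham 3, and the value on the array labelled sham 2 was not well above background. Over the remaining 5 arrays Grik2 averaged -1.11 ± 0.11 in the 3 orchidectomized arrays and -1.23 ± 0.18 in the 2 sham arrays (SD), which is a difference of 0.13 with a 95% interval of -0.24 to 0.50. That interval spans 0.848-fold to 1.41-fold.

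Grik3, which encodes the third subunit able to form channels alone, had -5.77, -6.31 and -5.40 on orchidectomized 1 to 3, against -5.51, -9.44 and -6.42 on sham 1 to 3. Its values were lowest on orchidectomized 2 and sham 3 among the 5 arrays, and the spread within each group was larger than the distance between the groups. Those were also the 2 arrays with the highest 75th percentiles (log2 11.1 and 11.3), and orchidectomized 3, where Grik3 was highest, had the lowest (log2 10.1). Before scaling, the processed signal of Grik3 was 32.8, 27.1 and 26.5 on orchidectomized 1 to 3 and 38.9 and 30.1 on sham 1 and sham 3. The part of the scaling in the order of these dim values was not tested. Over the 5 arrays the Grik3 difference was 0.14 (SE 0.37), and its 95% interval of -0.78 to 1.05 is the widest of the 7 probes. The Grik3 difference was -0.32 against sham 1 alone and 0.59 when sham 1 was left out, so its sign rests on which sham array is used.

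Of the genes of the high-affinity subunits, Grik4, whose transcript is typical of CA3 and the dentate gyrus, was spotted 10 times per array. It had -1.22, -1.14 and -1.28 on orchidectomized 1 to 3, against -1.22, -5.69 and -1.19 on sham 1 to 3. The 3 orchidectomized values enclosed those of sham 1 and sham 3. On the 5 arrays the SD over single spots was 0.044 to 0.080, and the SD of the array means, each over 9 or 10 spots, was 0.048. Of 1312 probes with 10 spots that were well above background on these 5 arrays, 2.82% had a smaller SD over the arrays, and their median SD was 0.162. Grik4 averaged -1.21 ± 0.066 in the 3 orchidectomized arrays and -1.21 ± 0.021 in the 2 sham arrays of these 5 arrays (SD). The difference was -0.0053 with a 95% interval of -0.31 to 0.30 (limma adjusted p 0.998), which spans 0.806-fold to 1.23-fold.

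**Figure D2:**
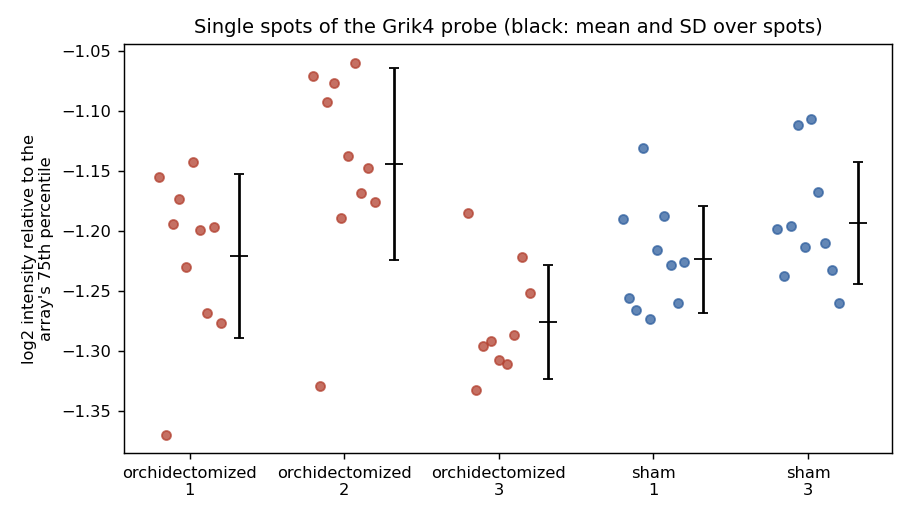
Each point is 1 spot of the Grik4 probe on the 5 arrays other than the one labelled sham 2, orchidectomized in red and sham in blue, as log2 intensity relative to the array's 75th percentile (y axis). Black marks give the mean and SD over the 9 or 10 spots of an array. The means lie between -1.28 and -1.14, and spots of different arrays overlap.

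Grik5, which encodes the most widely expressed high-affinity subunit, had 3.86, 3.83 and 3.19 on orchidectomized 1 to 3, against 3.89, 2.00 and 3.80 on sham 1 to 3. Orchidectomized 1, orchidectomized 2, sham 1 and sham 3 lay within 0.1 of each other, and orchidectomized 3 was lower by 0.65 than their median. Over the 5 arrays other than the one labelled sham 2, Grik5 averaged 3.63 ± 0.37 in the 3 orchidectomized arrays and 3.85 ± 0.064 in the 2 sham arrays (SD). The difference of -0.22 had an SE of 0.24 and a limma adjusted p of 0.988. That difference was -0.0038 without orchidectomized 3.

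Neto1, the auxiliary protein that gives hippocampal kainate receptors their slow kinetics and that also binds NMDA receptors, had 2.24, 2.39 and 2.18 on orchidectomized 1 to 3, against 2.20, -6.40 and 2.41 on sham 1 to 3. The 5 values other than that of the array labelled sham 2 lay within 0.23 of each other, with both groups spread over the same range. Over those 5 arrays Neto1 averaged 2.27 ± 0.11 in the 3 orchidectomized arrays and 2.31 ± 0.15 in the 2 sham arrays (SD). The difference was -0.035 with a 95% interval of -0.39 to 0.32, which spans 0.762-fold to 1.25-fold.

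Slides and scan days gave narrower comparisons, each with sham 1 as the only sham array, so they have no sham spread of their own. On the slide that held both, orchidectomized 3 differed from sham 1 by 0.66 at Grik1 NM_001111117, 0.49 at Grik1 NM_017241, 0.020 at Grik2 and 0.10 at Grik3. At Grik4, Grik5 and Neto1 the same pair differed by -0.052, -0.70 and -0.017. On the scan day that held all orchidectomized arrays and sham 1, the difference was 0.33 and 0.14 at the Grik1 probes in the same order, 0.0033 at Grik2, -0.32 at Grik3, 0.0098 at Grik4, -0.27 at Grik5 and 0.072 at Neto1. In the scan day comparison Grik3, Grik4 and Neto1 had the opposite sign to the fit of 5 arrays. With all 6 arrays, the SE ran from 0.57 for Grik5 to 2.45 for Neto1, and limma adjusted p was 0.774 to 0.791.

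**Figure D3:**
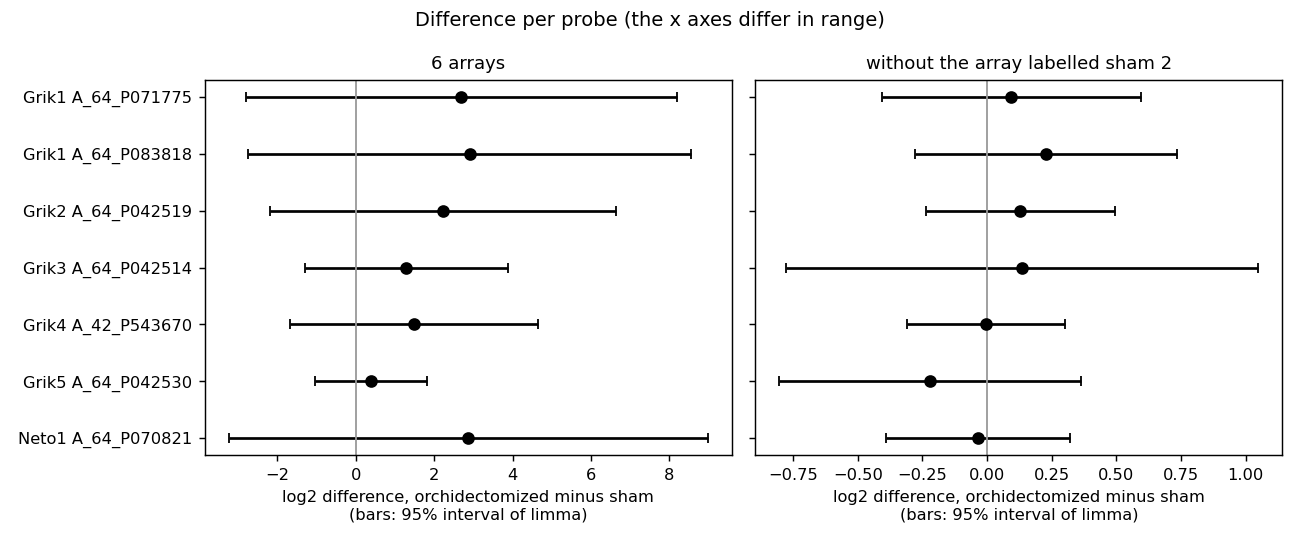
Log2 difference, orchidectomized minus sham (x axis), with the 95% interval of limma for each probe, with all 6 arrays on the left and with the array labelled sham 2 left out on the right, on axes of different range. All 14 intervals include 0, and those on the left reach from -3.24 to 8.97 for Neto1.

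Over the 6 genes, with the brightest probe of each, the median difference without the array labelled sham 2 was 0.062, with 3 estimates above 0 and 3 below, and the median over all 25212 tested probes was -0.024. With that array the median was 1.85, beside -0.016 over all 24634 tested probes, and it is no exact value, since it takes in background readings of Grik1, Grik2 and Grik3. Orchidectomized 3 held the lowest or the highest of the 5 values at 6 of the 7 member probes. It did so at 66.6% of all probes that were well above background on the 5 arrays. With 7 probes these shares cannot be told apart. On that array both Grik1 probes and Grik3 were highest, and Grik4, Grik5 and Neto1 were lowest. The value farthest from the median of the 5 arrays was that of orchidectomized 3 at Grik5 and both Grik1 probes, that of sham 3 at Grik2, Grik3 and Neto1, and that of orchidectomized 2 at Grik4. The share of all probes that were lowest or highest was 24.4% for orchidectomized 1, 27.1% for orchidectomized 2, 39.6% for sham 1 and 42.3% for sham 3. Relative to the median of the other 4 arrays, orchidectomized 3 was shifted by -0.65 at Grik5 and 0.50 at the NM_001111117 probe of Grik1. With quantile normalization of all 6 arrays these shifts were -0.73 and 0.55. The signed median shift over all probes well above background on the 5 arrays was 0.0061 in that setting. Shifts up and down cancel in such a median, and the usual size of a shift was not computed.

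**Figure D4:**
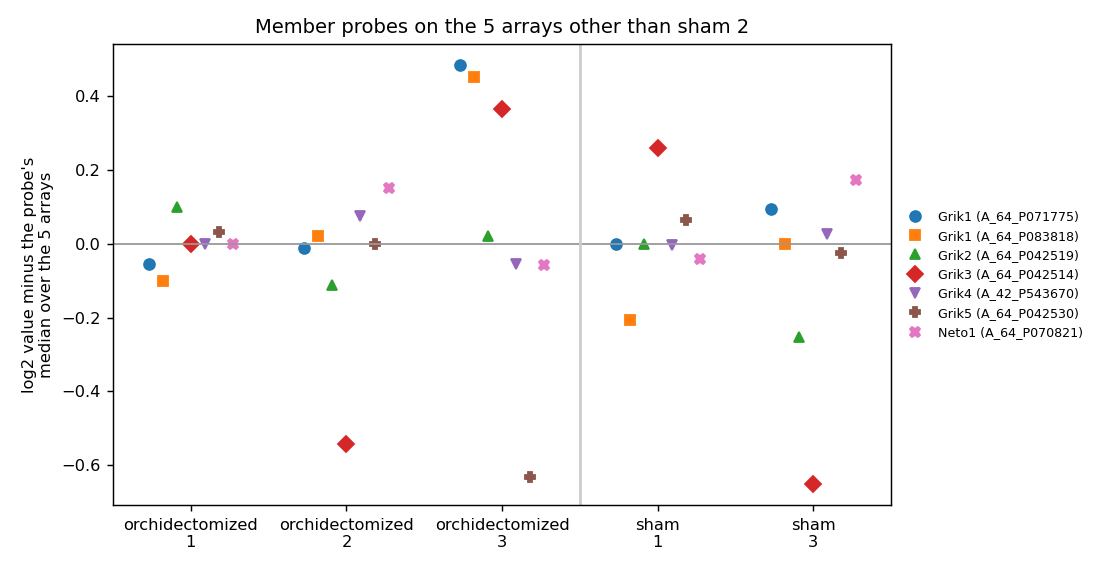
Log2 value of each member probe minus its median over the 5 arrays (y axis), by array (x axis), orchidectomized left of the line and sham right of it. Orchidectomized 3 carries the highest Grik1 values (0.49 and 0.45 above the median) and the lowest Grik5 value (-0.63), and the dim Grik3 probe is spread over all arrays.

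The array labelled sham 2 separated the members from each other. Neto1 was still well above background on it and lay -8.64 from the median of the other 5. Taken at their mean log2 value, the other 5 arrays were 411-fold brighter. Grik4 lay -4.47 from that median, with 10 of 10 spots well above background, and the other 5 were 22.3-fold brighter at their mean. Grik5 lay -1.83 from that median, and the other 5 were 3.29-fold brighter at their mean. Measured this way, the distance of Grik5 was the smallest and that of Neto1 the greatest of these 3 genes. The processed signal on that array was only 21.9 for Neto1 and 36.1 for Grik4, so their ratios vary with the background correction. With normexp, another such correction, the difference over 6 arrays fell from 2.87 to 2.16 for Neto1 and from 1.49 to 1.04 for Grik4. For Grik5 it was 0.40 with either.

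Grik1, Grik2 and Grik3 were not well above background on the array labelled sham 2, so their distance is given at an approximate limit. The array then counts at the probe's own value or at the dimmest value that was well above background there, whichever was higher. Grik2 read above that dimmest value and was still not well above background, so the limit is not strict. At this limit the other 5 arrays, at their mean log2 value, were 60.7-fold brighter for the NM_001111117 probe of Grik1. They were 53.8-fold brighter for the NM_017241 probe, 81.6-fold for Grik2, which is its measured ratio, and 3.11-fold for Grik3. With those genes at their limit, the median distance of the 6 genes from the mean of the other 5 was -5.20. All 6 genes lay over 1 log2 unit below the median of the other 5 arrays. So did 23.8% of the 27363 probes well above background on any array, whose median distance from it was 0.0045.

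Lists of neuronal genes were also lower on that array. GABAergic interneuron genes had a median distance of -5.71 (10 of 10 over 1 log2 unit lower), dentate granule cell genes -4.67 (5 of 7) and genes of CA3 and CA2 pyramidal cells -4.96 (5 of 6). Glutamatergic neuron genes had -7.57 (7 of 7). On that array 2 of the 7 glutamatergic genes and 1 of the 7 dentate genes were not well above background, so these lists take in background readings. Astrocyte genes had -4.93, oligodendrocyte genes -4.47, genes of oligodendrocyte precursors -3.33, microglial genes -1.40 and endothelial genes 0.10. Ependymal genes, of which 3 of 6 had a probe, had 5.05, with a range of -0.57 to 5.86. The part of these cell types in the values of the kainate receptor genes was not tested. With 1 array of this kind there is no test of its differences.

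**Figure D5:**
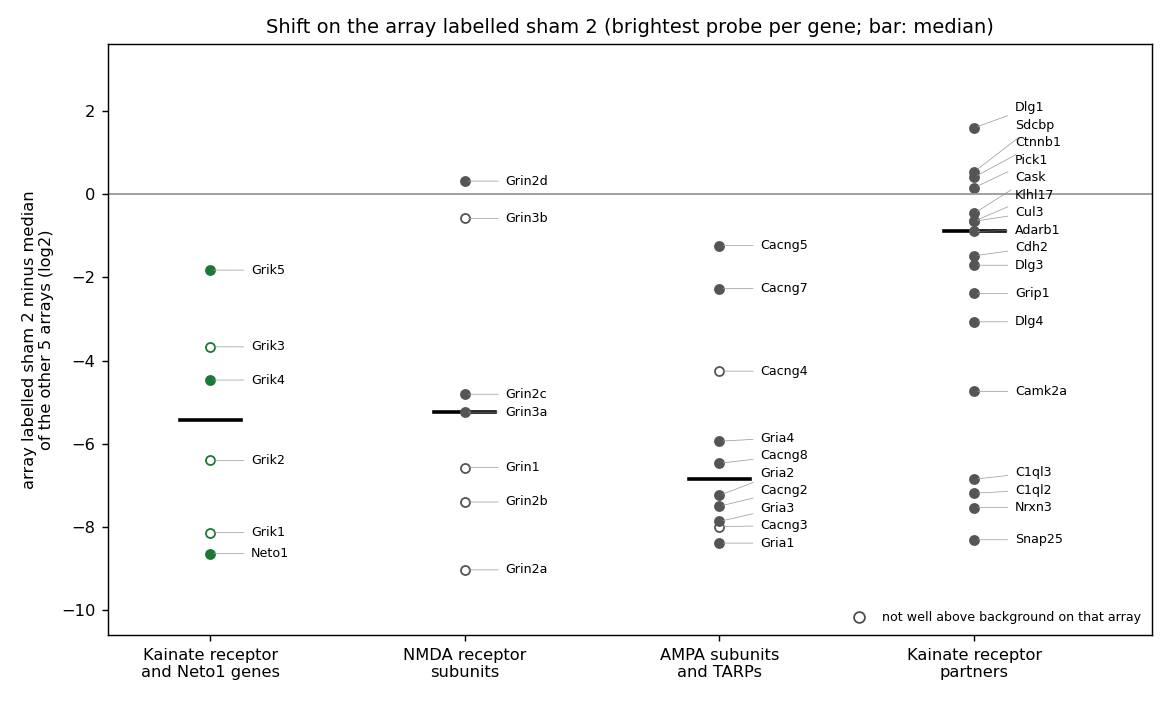
Log2 distance of the array labelled sham 2 from the median of the other 5 arrays (y axis) for each gene, by list (x axis), kainate receptor and Neto1 genes in green and the others in grey, with a bar at each median over the whole list. Of the 19 partners 17 are drawn. Open circles mark genes not well above background on that array. Medians of the readings as they stand are -5.43 for kainate receptor and Neto1 genes (3 of 6 not well above background), -5.24 for NMDA receptor subunits (4 of 7), -6.85 for AMPA receptor genes (2 of 10) and -0.90 for partners (0 of 19), so the first 3 are not exact.

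Among the other ionotropic glutamate receptors, 7 NMDA receptor subunit genes and 10 genes of AMPA receptor subunits and their TARP auxiliary proteins were tested, and 0 passed the threshold in either comparison. With 5 arrays, 3 NMDA receptor genes had estimates above 0 and 4 below, with a median of -0.078. Grin3a, the gene of a glycine-binding subunit that lowers calcium entry, had -1.32, -1.32 and -1.21 on orchidectomized 1 to 3, against -1.71 and -2.42 on sham 1 and sham 3. Its difference of 0.78 had an unadjusted p of 0.0153 and a limma adjusted p of 0.988, and its groups did not overlap, as at 16.3% of all tested probes. On the array labelled sham 2 Grin3a had -6.56. Grin2d differed by 0.43, and the gene of the obligatory subunit, Grin1, by -0.60, with -3.09 on orchidectomized 3 and between -1.57 and -1.20 on the other 4 arrays. Of all probes well above background on the 5 arrays, 31.1% were lowest on orchidectomized 3, as Grin1 and Grik5 were.

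In the AMPA receptor list, 6 genes had estimates above 0 and 4 below with 5 arrays, and the median was 0.033. The TARP genes Cacng4 and Cacng5 differed by 0.29 and -0.29, and the subunit gene Gria4 by 0.34. All 10 AMPA receptor genes and 5 of 7 NMDA receptor genes read over 1 log2 unit lower on the array labelled sham 2, while Grin2d lay 0.31 above the others. Of these lower genes, Grin1, Grin2a, Grin2b, Cacng3 and Cacng4 were not well above background there, so their distances are not exact. Grin3b was not well above background there either, so that no distance can be read for it.

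The list of kainate receptor partners held 22 genes of proteins that place, anchor, modify or edit the receptors, 19 of which had a probe. In both comparisons 0 of 19 passed the threshold. With 5 arrays, 8 estimates lay above 0 and 11 below, with a median of -0.020. C1ql3, which encodes a synaptic organiser that recruits kainate receptors at mossy fibre synapses in mice, differed by -0.31 (SE 0.19). It had 3.98, 3.83 and 3.55 on orchidectomized 1 to 3, against 3.94 and 4.25 on sham 1 and sham 3, so the groups overlapped. The related C1ql2 differed by -0.14. Sdcbp, the gene of the scaffold syntenin, differed by 0.31, and the ubiquitin ligase gene Cul3 by -0.26, each with its most distant value on orchidectomized 3. With 5 arrays, 4 of 19 partners had no overlap between the groups, 2 higher (Dlg1 and Sdcbp) and 2 lower (C1ql2 and Cul3) in orchidectomized samples, beside 16.3% of all tested probes. Adarb1, which encodes an enzyme that edits the pore codon of GluK1 and GluK2 messages, differed by 0.088.

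On the array labelled sham 2 the partners ran from -8.30 for Snap25 to 1.59 for Dlg1. The synaptic genes Snap25, Nrxn3, C1ql2 and C1ql3 lay -8.30, -7.53, -7.18 and -6.85 from the median of the other 5, and Camk2a, which is also on the glutamatergic list, -4.74. The catenin gene Ctnnb1, the scaffold gene Pick1 and Sdcbp lay between 0.15 and 0.53 above it, and Dlg1, also a scaffold gene, lay 1.59 above it. Other scaffold genes were lower: Dlg4, Grip1, Dlg3 and Cask lay -3.07, -2.39, -1.71 and -0.47 from it. The adhesion gene Cdh2 lay -1.49 from it. Of the 19 partners 9 were over 1 log2 unit lower there, beside the 23.8% of all probes.

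Among 13779 other named genes, those among the closest 2 to each member over the 6 arrays, by the root mean square difference of centred log2 values, were Astn1 (0.062) and Gpr83 (0.076) for Neto1, Ina (0.060) for Grik1, Itpka (0.055) for Grik2, and Abcb1b (0.044) and Sv2a (0.055) for Grik4. For Grik5 they were Usp54 (0.068) and Wbp2 (0.068), and for Grik3 they were Npy2r (0.16) and Slc38a5 (0.16). The array labelled sham 2 carries most of the spread that sets this likeness: it lay -8.73 from the median of the others at Astn1 and -1.72 at Usp54, near the distances of Neto1 and Grik5. For Grik1, Grik2 and Grik3 it therefore rests on readings that were not well above background.

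The bases before the transcript start were read for all 7 genes from RefSeq (GRCr8), 250 per gene, to show where a steroid receptor element could lie in a study of androgen loss. The palindrome bound by the androgen receptor (AGAACA, any 3 bases, then TGTTCT) and its core AGAACA were each found in 0 of the 7 windows on either strand. The palindrome was in 0.012% and the core in 17.5% of 33469 such windows of the genome. The left arm of the RE1 element, TTCAGCACC, which is bound by the neuronal gene repressor REST, was in 0 of the 7 and in 0.305% of all. The Sp1 box GGGCGG, which can overlap itself in repeats, was in the windows of Grik3 (5 times), Neto2 (3 times) and Grik5 (1 time). At least 1 such box was in 30.5% of all windows. The Grik3 and Neto2 windows were 81.6% and 74.4% G or C, beside a median of 51.2% over all windows. A missing match says only that these letters are not in the window. The 2 windows printed are those of Neto1 and Grik5, the members with the greatest and the smallest distance among those measured on the array labelled sham 2. Capitals mark the Sp1 box, which begins 139 bases before the start of Grik5. The Neto1 window is chr18:81910203-81910452 on the plus strand, with 56.8% G or C, and the Grik5 window is chr1:89794910-89795159 on the minus strand, with 70.8%.
Neto1: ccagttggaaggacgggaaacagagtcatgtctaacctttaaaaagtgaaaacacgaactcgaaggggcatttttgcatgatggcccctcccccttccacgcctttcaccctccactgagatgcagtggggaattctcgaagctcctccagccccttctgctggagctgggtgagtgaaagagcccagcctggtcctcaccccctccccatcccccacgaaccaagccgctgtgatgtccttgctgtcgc
Grik5: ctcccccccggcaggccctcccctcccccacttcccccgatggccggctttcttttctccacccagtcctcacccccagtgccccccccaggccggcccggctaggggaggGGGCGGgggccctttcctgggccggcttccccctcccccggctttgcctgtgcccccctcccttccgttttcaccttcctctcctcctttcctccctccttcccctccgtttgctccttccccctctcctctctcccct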

How the data were processed

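Total RNA of each sample (200 ng) was amplified and labelled with Cy3, per the labels' protocols. Per the file headers, the scans of the single dye were quantified in Agilent Feature Extraction 10.5.1.1. Its processed signal is an intensity after background subtraction and detrending. In the authors' deposited table each log2 value of a probe with 1 spot is the log2 of this signal shifted by 1 constant per array; probes with 10 spots can differ slightly from that. The origin of the constants is unknown, and the column medians are 7.62 to 8.05. Scanner flags of 0 or 1 were used as deposited.

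Control spots (1377 of 44254) and outlier spots were left out, 1 of the Grik4 spots on orchidectomized 3 among them. Spots were averaged per probe on the log2 scale, and each array's 75th percentile was subtracted. The scanner's flag for well above background was taken as met by a probe when 50% or more of its spots carried it. Accessions were matched without versions to the RefSeq table of GRCr8, which named 18004 probes; the array design is annotated on another build, so probe coordinates are not given. A probe was tested if 1 group or both had it well above background throughout. The two-sided test was limma 3.58.1 (R 4.3.3), and p-values were adjusted by Benjamini-Hochberg over every tested probe. The fit was tested on simulated data. The members and lists were chosen with earlier results of these data known. Named genes were all members, the 3 genes per other receptor or partner list with the smallest p without the array labelled sham 2, and the 2 genes most like each member. Some of these and of the partners are not reported here. C1ql2, Adarb1, Dlg1 and the genes given by their distance on the array labelled sham 2 were chosen after their values were seen. The list of partners shares Camk2a with the glutamatergic list and C1ql2 with the dentate list, and the AMPA receptor list shares Cacng5 with the CA3 and CA2 list.

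The arrays lay on 4 slides and 2 scan days. Orchidectomized 3 and sham 1 shared a slide, and the 3 orchidectomized arrays and sham 1 shared a scan day. Alternatives were normexp with an offset of 50 on median spot signals, quantile and median scaling, the deposited values, other brightness filters, blocks for slide, scan day and replicate number, and leaving out each array.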

Additional observations from a re-analysis of the deposited data

How the results depend on the processing

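None of the member probes was called under any alternative run, with all 6 arrays or without the array labelled sham 2, and the lowest limma adjusted p was 0.120 (Grik5, slide as a block, 6 arrays). With all 6 arrays, the slide block turned Grik4 to -0.052, Grik5 to -0.70 and Neto1 to -0.017, and the scan day block turned Grik3 to -0.32 and Grik5 to -0.27. In the estimates, both blocks by construction give no weight to the array labelled sham 2 or to sham 3, though under the scan day block both enter the error. Normexp gave 1.18 and 1.32 for the Grik1 probes (NM_017241, NM_001111117), 1.31 for Grik2 and 0.45 for Grik3. For Grik4, Grik5 and Neto1 it gave 1.04, 0.40 and 2.16, and for the members' median 1.18. That median was 0.0017 with the slide block and 0.0066 with the scan day block. Leaving out each array in turn gave 0.093 to 4.03 (NM_017241) and 0.23 to 4.29 (NM_001111117) for Grik1, 0.13 to 3.33 for Grik2, 0.14 to 2.10 for Grik3, -0.0053 to 2.24 for Grik4, -0.22 to 0.73 for Grik5, -0.035 to 4.37 for Neto1 and 0.062 to 2.78 for the members' median. Every low end is the value without the array labelled sham 2.

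With 5 arrays, Grik4 turned to 0.019 with normexp, 0.0039 with quantile normalization, 0.049 with the deposited values and 0.0098 with the scan day block. Neto1 turned to 0.018 with the deposited values and 0.072 with the scan day block, which turned Grik3 to -0.32. Leaving out a further array gave -0.080 to 0.19 and 0.063 to 0.34 for the same Grik1 probes, 0.0033 to 0.25 for Grik2, -0.32 to 0.59 for Grik3, -0.040 to 0.026 for Grik4, -0.34 to -0.0038 for Grik5, -0.14 to 0.072 for Neto1 and 0.0066 to 0.073 for the median. Where 1 sham array remained, its variance was taken from the spread among the orchidectomized arrays.

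Among all probes, quantile normalization called 1 with 6 arrays. With 5 arrays, 2 were called by quantile normalization, 1 by median scaling, 18 from the deposited values and 10 under the scan day block. Leaving out a further array gave 0 to 251 calls, with 251 without sham 3 and 22 without sham 1. The cause was not tested. Median scaling moved the median of all probes to -0.10 with 6 arrays. Same-numbered samples were not treated as pairs in the main fit. Their deviations from the group means correlated at -0.023 to 0.027 with 6 arrays, and at 0.18 for number 1 and -0.060 for number 3 with 5. These values cannot exclude pairing. With 6 arrays the array labelled sham 2 sets most of the sham deviations, and with 5 the 2 sham deviations are opposite by construction. The replicate block called 0 probes in both comparisons, and under it Grik1 (NM_001111117) differed by 2.90 with 6 arrays and 0.28 with 5. Requiring a probe to be well above background on all 6 arrays leaves no value for Grik1, Grik2 and Grik3. With 5 arrays the upper ends of the members' 95% intervals lie between 0.30 (Grik4) and 1.05 (Grik3).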
